A study of Mus musculus with 6 samples.

Results

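Cluster 7 is a small group of cells that the authors' own clustering set apart among mouse haematopoietic stem cells (HSCs). It is called here by its number, and its members are the cells that the authors placed in it. It held 267 of 22378 cells, or 1.19%, drawn from 6 libraries that were pooled. It was described from the authors' deposited tables, which compare each of 11 clusters with all other cells. The 5 genes that the name of the cluster rests on were the mitochondrially encoded mt-Atp6, mt-Co2 and mt-Nd4l and the long non-coding RNAs Kcnq1ot1 and Malat1, and all 5 were higher in the cluster.

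The cells had been sorted from bone marrow of Gfp-Lc3 mice, which carry a fluorescent reporter fused to the autophagosome protein LC3, and were profiled by droplet single-cell RNA sequencing. Old and young mice were each studied with food at all times, after a 24 h fast, and after a 24 h fast followed by 24 h of refeeding. Each of these 6 groups was 1 mouse and 1 library, so nothing here carries an error between animals. What drives the reporter transgene, which all 6 mice carried, is not stated in the labels. The deposited tables pool the 6 libraries, and how many cells of cluster 7 came from each mouse was not analysed here.

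The mitochondrial genome is a circular DNA that encodes 13 proteins, all subunits of the complexes of oxidative phosphorylation. It is read from both strands as long precursor RNAs that are cut into single messengers, inside the organelle. Most subunits of the same complexes, and all proteins of the mitochondrial ribosome, are encoded in the nucleus, translated in the cytoplasm and imported. In droplet data a high share of mitochondrial transcripts is widely used as a sign of stressed or leaking cells, and HSCs are known for mitochondria that are kept at low activity.

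A fold below is the authors' log2 fold change of cluster 7 against all other cells, so a value of 1 is a ratio of 2. It was found to be a ratio of means of log-transformed counts turned back to counts, so it is not the ratio of plain mean counts. Genes count as higher or lower below where the deposited fold reached 0.5 in size with a deposited adjusted p-value under 0.05. These p-values treat cells as replicates, and the clusters were made from the same genes, so a call is a filter on noise and no test of the cluster. The median fold over all genes with a count was -0.17 in cluster 7, and over the detected genes, which the lists use, it was -0.04. The first holds 2740 genes with no count in the cluster, and both were tried as a zero point. Cluster 10 held 10 cells, and values for other clusters are those of the 9 others unless it is named.

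By this rule 314 genes were higher in cluster 7, or 1.84% of 17055 genes with a count. A further 4148 were lower, or 24.3%. Of the 2740 genes with no count in any of the 267 cells 2533 were among these, or 92.4%, and 1615 of the 14315 detected genes, or 11.3%, were both detected and lower. With the median over all genes subtracted from each fold, the split was 439 higher and 941 lower and detected, and with that over detected genes, chosen after the data were seen, it was 351 and 1424. A gene without a count allows up to 1.12% of the cells to hold a molecule of it, a limit that covers counting error only. The equivalent depth, the count per cell that Poisson sampling of the mean profile needs to leave as many genes undetected, was 9579 in cluster 7, against 9651 in cluster 6 and up to 15555 in the others. The part of depth in these calls was not tested.

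The 13 mitochondrial protein genes lie close together on the mouse mitochondrial genome, and some overlap. How the authors' counting treated reads from an overlap is not stated in the sources. The overlaps of mt-Atp8 with mt-Atp6 and of mt-Nd4l with mt-Nd4 are shown because mt-Atp6 and mt-Nd4l are among the 5 naming genes. Besides these, mt-Atp6 shares 1 base with mt-Co3, and mt-Nd5 shares 14 bases with mt-Nd6 on the other strand. The sequences are from the GENCODE transcripts on GRCm38, plus strand, with the shared bases in capitals, 43 for the first pair (chrM:7927-7969) and 7 for the second (chrM:10167-10173), and 20 bases of lower case on each side.
mt-Atp8/mt-Atp6: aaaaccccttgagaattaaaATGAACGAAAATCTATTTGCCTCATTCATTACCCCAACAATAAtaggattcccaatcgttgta
mt-Nd4l/mt-Nd4: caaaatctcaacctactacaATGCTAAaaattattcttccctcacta
In both, the capitals open with the start codon of the downstream gene. The overlap takes up 43 of the 204 bases of mt-Atp8 and 7 of the 297 bases of mt-Nd4l.

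All 13 mitochondrially encoded protein genes were higher in cluster 7 in the authors' deposited table, beside 1.84% of all genes. Their median fold was 1.17, a ratio of 2.26 on the deposited scale. The lowest was mt-Atp8 at 0.85 and the highest mt-Nd4l at 1.30. The first 11 genes of the cluster's table, in the authors' order, were all of them mitochondrial. Over all cells the 13 genes made up 4.27% of counts.

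mt-Atp6 encodes the proton channel subunit of ATP synthase and averaged 87.2 counts per 10000 over all cells. Its fold was 1.21 in cluster 7 and 0.06, -0.01, -0.15, 0.09, -0.07, 0.09, -0.46, -0.03, -0.08 and -0.07 in clusters 0, 1, 2, 3, 4, 5, 6, 8, 9 and 10. Cluster 7 alone was high for this gene, cluster 6 was low, and the remaining clusters lay within 0.15 of no change. mt-Co2, a copper-binding subunit of cytochrome c oxidase, had a fold of 1.17 in cluster 7 and 0.04, 0.02, -0.14, 0.07, -0.05, 0.06, -0.57, -0.05, -0.11 and -0.01 in the same order. mt-Nd4l, a small membrane subunit of complex I, had a fold of 1.30 in cluster 7 and -0.13, -0.03, 0.09, 0.02, 0.06, -0.13, -1.18, 0.17, 0.36 and 0.27. No other cluster came near cluster 7 for these genes.

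The remaining complex I genes rose by similar amounts in cluster 7. The folds were 1.25 for mt-Nd2, 1.19 for mt-Nd3, 1.14 for mt-Nd4, 1.14 for mt-Nd5 and 1.05 for mt-Nd1. mt-Nd6, the 1 protein gene read from the other strand (chrM:13552-14070, minus), rose by 1.29, beside a median of 1.16 for the 12 genes of the plus strand. The sources used here do not say whether the counting used strand, so reads of mt-Nd6 and of the precursor on the opposite strand cannot be told apart. mt-Cytb, the complex III subunit that holds the haem groups of the Q cycle, had a fold of 1.14. The cytochrome c oxidase genes mt-Co3 and mt-Co1 had folds of 1.18 and 1.05. None of the 24 annotated mitochondrial ribosomal RNA and transfer RNA genes was among the genes that the authors listed, so these are not described. Across the 9 other clusters the median over the 13 genes lay between -0.74, in cluster 6, and 0.07.

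**Figure D1:**
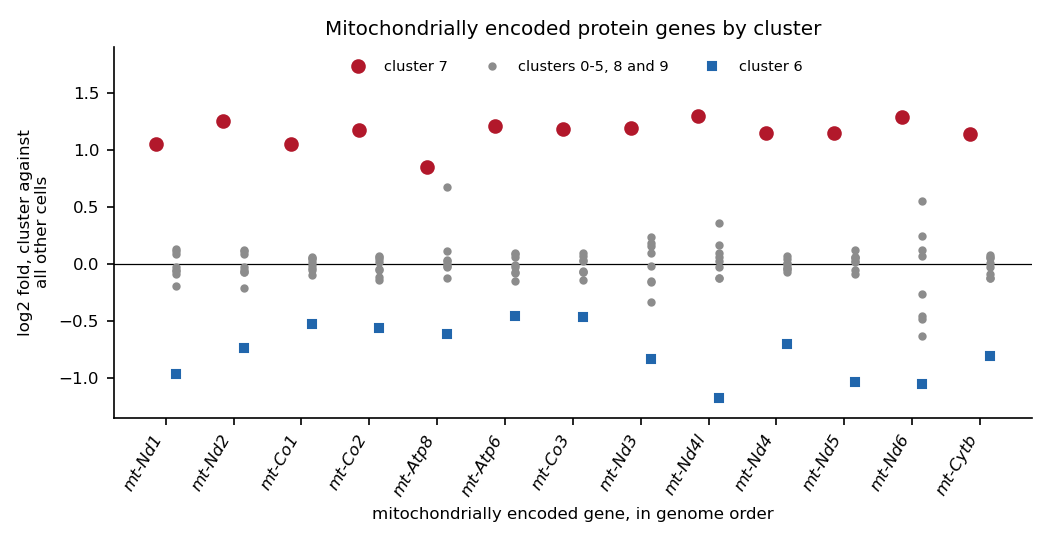
Authors' log2 fold of each of the 13 mitochondrially encoded protein genes (x axis, in genome order) in cluster 7 (red circles), in cluster 6 (blue squares) and in clusters 0 to 5, 8 and 9 (grey circles), each against all other cells. Cluster 7 lies between 0.85 and 1.30 for every gene, and cluster 6 lies below 0 for every gene.

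Many nuclear subunits of the same complexes were lower. Of 76 nuclear subunits of the 5 complexes, all detected, 55 were lower, none was higher, and 1 had a fold above 0 in the authors' deposited table. Their median fold was -0.62 in cluster 7, against medians between -0.11 and 0.32 in the other clusters. The number lower was 29 with the median over all genes subtracted from each fold and 49 with that over detected genes. In complex I, which takes electrons from NADH, the 7 mitochondrial genes had a median fold of 1.19 and the 36 nuclear genes one of -0.54. Of the 36, 22 were lower, beside 11.3% of all detected genes and a larger share of short genes, given below. With the median over all genes subtracted from each fold 5 of the 36 were lower, and with that over detected genes 18. Ndufb10 fell by 0.91, Ndufa2 by 0.80, Ndufs6 by 0.77 and Ndufa7 by 0.76, and all 4 encode accessory subunits. Complex II, succinate dehydrogenase, is wholly nuclear. Its 4 subunits had a median of -0.51, and Sdhb, the iron-sulphur subunit, and Sdhd, a membrane anchor, were lower at -0.90 and -0.74.

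In complex III mt-Cytb stood at 1.14 and the 9 nuclear subunits at a median of -0.69, with 7 lower. Uqcrh, the hinge protein that helps cytochrome c dock, fell by 1.01. The small subunits Uqcr11, Uqcrb and Uqcr10 stood at -0.85, -0.84 and -0.83. In complex IV, cytochrome c oxidase, the 3 mitochondrial genes had a median of 1.17 and all 11 nuclear subunits were lower, with a median of -0.69 and a highest fold of -0.51. Cox7b was at -0.92, Cox6b1 at -0.81, Cox8a at -0.78 and Cox5a at -0.73. In ATP synthase the 2 mitochondrial genes had a median of 1.03 and the 16 nuclear ones one of -0.72, with 13 lower. Among them Atp5j2, Atp5e, Atp5j and Atp5l stood at -0.98, -0.93, -0.88 and -0.78. In each of the 4 complexes with subunits from both genomes, the lowest mitochondrial fold lay above the highest nuclear fold.

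**Figure D2:**
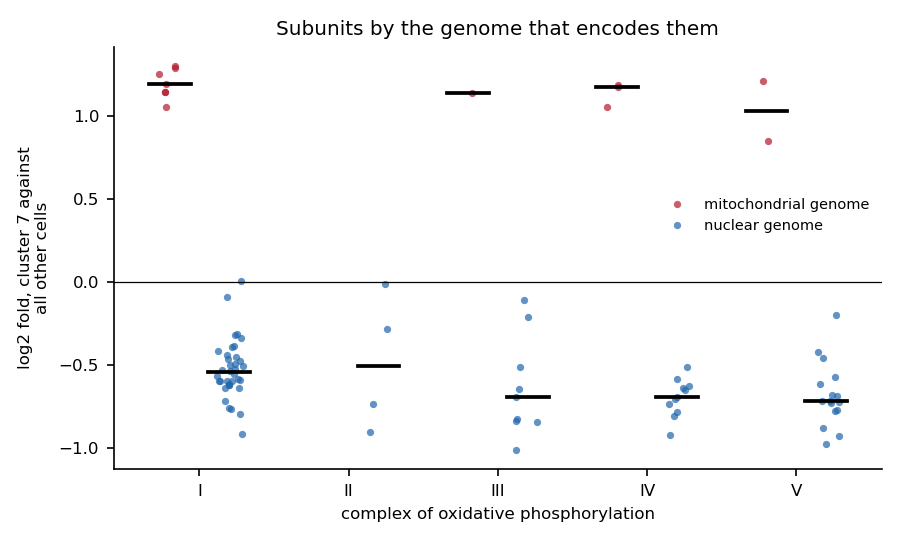
Authors' log2 fold in cluster 7 against all other cells for subunits of complexes I to V, mitochondrial genome (red, left) and nuclear genome (blue, right), 1 point per gene with the median as a bar. Complex I has medians of 1.19 and -0.54, complex III 1.14 and -0.69, complex IV 1.17 and -0.69 and complex V 1.03 and -0.72, and complex II holds nuclear subunits alone with a median of -0.51.

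Among other nuclear genes for mitochondrial proteins more were lower than higher in cluster 7. Of 78 mitochondrial ribosomal proteins, which translate the 13 messengers, 39 were lower, beside 11.3% of all detected genes, and none higher, with a median of -0.50. With the median over all genes subtracted 15 were lower, and with that over detected genes 36. Mrps34 was at -0.81, Mrpl49 at -0.79, Mrps36 at -0.77 and Mrpl30 at -0.75. Of 20 protein import genes 9 were lower and none higher, with a median of -0.49. Grpel1, the exchange factor of the matrix chaperone of import, stood at -0.86. Tomm7, Tomm5 and Tomm22, parts of the outer membrane translocase, stood at -0.79, -0.77 and -0.75.

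The 26 genes that copy, transcribe and process mitochondrial DNA and RNA had a median of -0.27. Of them 2 were higher and 5 lower, or 7.69% and 19.2%, beside 2.19% and 11.3% of all detected genes. The 2 higher were Polg, the catalytic subunit of the mitochondrial DNA polymerase, at 0.75, and Lrpprc, which stabilises mitochondrial messengers, at 0.73. The partners of both were lower: Polg2, the accessory subunit of the polymerase, stood at -0.83, and Slirp, which binds Lrpprc, at -0.92. Mterf2, which binds the mitochondrial genome, was at -0.78. Of 19 mitophagy and mitochondrial dynamics genes 1 was higher and 4 were lower, or 5.26% and 21.1%. Opa1, the inner membrane fusion protein, stood at 0.58. Fis1, the mitochondrial fission adaptor, stood at -0.90, and the mitophagy receptors Optn, Bnip3l and Sqstm1 at -0.94, -0.63 and -0.58. Among 17 detected genes of the mitochondrial stress response none was higher and 11.8% were lower, near the share over all detected genes. The lower ones were Gdf15, a stress-induced secreted factor, at -2.37 and Hspe1, the co-chaperonin of the matrix, at -0.73. Gdf15 averaged 0.013 counts per 10000 over all cells, and cluster 6 stood at -2.39 for it. The transcript of Chac1, a glutathione-degrading enzyme induced by the same response, had no count in cluster 7.

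Ribosomal protein genes of the cytoplasm were the largest block of lower genes. Of 80 such genes 79 were lower in the authors' deposited table, beside 11.3% of all detected genes, and their median fold was -0.92, a ratio of 0.528 on the deposited scale. The range was -1.14 to -0.44, and only Rps15, at -0.44, was not called. Over all cells these genes made up 37.4% of counts. In the other clusters their median lay between -0.06 and 0.06. Of the last 30 lower and detected genes of the cluster 7 table, 25 encoded ribosomal proteins.

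Rps13, a protein of the small subunit, had a fold of -1.14 in cluster 7 and 0.04, 0.06, -0.01, 0.02, -0.02, -0.03, 0.07, -0.08, -0.08 and -0.03 in clusters 0, 1, 2, 3, 4, 5, 6, 8, 9 and 10. Rpl27, of the large subunit, had -1.13 in cluster 7 and between -0.06 and 0.09 in the 9 others. Rps15a stood at -1.13 and Rpl34 at -1.12. No other cluster was low for any of them. The other ribosomal protein genes at the end of the table were Rpl32 at -1.02, Rps24 at -1.0, Rps10 at -1.0, Rps14 at -0.99, Rps20 at -0.91, Rpl19 at -0.91, Rps29 at -0.83 and Rpl13 at -0.81. The 10th gene there was Ndufaf6, a complex I assembly factor, at -2.42, from a level of 0.134 counts per 10000 over all cells. Reads of ribosomal protein genes can fall on their many pseudogenes, and the sources used here do not say how the authors' counting treated them.

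In cluster 7 the mitochondrial median lay 2.09 above the ribosomal protein median on the log2 scale, a ratio of 4.27 on the deposited scale. In the other clusters the same difference lay between -0.78 and 0.09.

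The promoters of ribosomal protein, respiratory chain and other genes were searched for the core binding motif of the ETS family of transcription factors. It is written CCGGAAG or, on the other strand, CTTCCGG. The windows ran from 250 bases before to 50 after each RefSeq gene start on GRCm38.p6. The motif was in 25 of 59 ribosomal protein genes with a window, or 42.4%, and in 17 of 63 nuclear respiratory chain genes, or 27.0%, with complex I at 4 of 32, or 12.5%. It was in 36 of 240 nuclear genes called higher in cluster 7, or 15%, in 313 of 1281 genes called lower and detected, or 24.4%, and in 2122 of 10755 genes detected in the cluster, or 19.7%. Lists with other calls held it as well: 13 of 24 genes of mitochondrial DNA transcription and RNA processing, or 54.2%, and 8 of 29 splicing factor genes, or 27.6%. Lists with many lower genes differed. The motif was in 10 of 25 proteasome genes, or 40%, and in 25 of 68 mitochondrial ribosomal protein genes, or 36.8%. In the mostly lower actin list it was in 6 of 29, or 20.7%, and among antioxidant enzymes in 3 of 22, or 13.6%. A match is a stretch of letters and not a measured binding site, and any part of the motif in the folds was not tested. The matches of the 3 ribosomal protein and 3 respiratory chain genes with the lowest folds among those that held one follow, with the motif in capitals and up to 25 bases on each side, on the strand of the gene.
Rpl34: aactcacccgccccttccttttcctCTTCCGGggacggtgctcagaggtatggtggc
Rpl35: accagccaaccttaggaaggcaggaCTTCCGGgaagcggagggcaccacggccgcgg
Rpl39: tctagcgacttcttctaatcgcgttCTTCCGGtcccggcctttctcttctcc
Uqcrh: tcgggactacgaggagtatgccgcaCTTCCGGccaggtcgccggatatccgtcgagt
Atp5e: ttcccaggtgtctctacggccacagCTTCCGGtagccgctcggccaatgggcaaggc
Sdhb: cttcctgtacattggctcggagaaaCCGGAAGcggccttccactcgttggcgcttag
These windows lie at chr3:130730308-130730364 (minus), chr2:39005227-39005283 (minus), chrX:37085173-37085224 (minus), chr4:116075049-116075105 (minus), chr2:174464172-174464228 (minus) and chr4:140961252-140961308 (plus). The folds of the 6 genes in cluster 7 were -1.12, -1.11, -1.07, -1.01, -0.93 and -0.90 in the same order.

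Other abundant messengers of the cytoplasm were lower too. Of 37 translation factors 17 were lower, beside 11.3% of all detected genes, and none was higher, with a median of -0.47. Tpt1, the translationally controlled tumour protein, was at -1.17, Naca and Btf3, subunits of the nascent polypeptide-associated complex, at -1.08 and -1.07, and Eef1b2, an elongation factor, at -1.05. Of 32 actin cytoskeleton and other abundant cytoplasmic genes 22 were lower, again beside 11.3%, and all had a fold below 0. Their median was -0.66. Tmsb4x, which binds actin monomers, stood at -1.10, Anxa2, a membrane-binding annexin, at -1.03, and the myosin light chains Myl12a and Myl12b at -0.87 and -0.85. Of 31 proteasome subunits 17 were lower, beside the same 11.3%, and none was higher, with a median of -0.55. With the median over all genes subtracted 6 were lower, and with that over detected genes 16. Among them Psmc2, Psma6, Psmb5 and Psmb1 stood at -0.93, -0.88, -0.77 and -0.75.

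Of 18 glycolysis genes 4 were lower and 1 was higher, or 22.2% and 5.56%, beside 11.3% and 2.19% of all detected genes. Gapdh, Ldhb and Aldoa stood at -0.78, -0.77 and -0.62. Hk2, a hexokinase that binds the outer mitochondrial membrane, was higher at 0.62. Of 26 antioxidant enzymes 10 were lower, or 38.5%, beside the same 11.3%, and all had a fold below 0. Txn1, the cytosolic thioredoxin, stood at -0.89, the glutaredoxin Glrx at -0.87, the peroxiredoxin Prdx5 at -0.85 and the glutathione peroxidase Gpx1 at -0.80.

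Nuclear-retained RNAs were among the nuclear transcripts that were higher in cluster 7. Of 14 detected nuclear-retained long non-coding RNAs 3 were higher, or 21.4%, beside 2.19% of all detected genes, and none was lower. Their median was 0.36, against -0.04 over all detected genes. Kcnq1ot1, an antisense RNA that silences its imprinted neighbours, had a fold of 0.90 in cluster 7 and -0.09, -0.53, 0.10, 0.07, 0.42, 0.12, -1.07, 0.31, -0.04 and 0.85 in clusters 0, 1, 2, 3, 4, 5, 6, 8, 9 and 10. Cluster 7 was the highest of the clusters with over 100 cells, and the 10 cells of cluster 10 were close to it. Kcnq1ot1 lies inside Kcnq1 on the opposite strand (chr7:143203458-143296549, minus), and the sources used here do not say whether the counting used strand, so reads of both genes cannot be told apart. Malat1, a component of nuclear speckles, averaged 200.1 counts per 10000 over all cells. Its fold was 0.63 in cluster 7 and -0.41, -0.02, 0.22, -0.05, 0.35, 0.19, -0.69, -1.15, 0.30 and -0.06 in the same order. Neat1, the scaffold of paraspeckles, stood at 0.63 in cluster 7, where the other clusters reached 0.81.

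Of 32 splicing factor and nuclear speckle protein genes 6 were higher, or 18.75%, beside 2.19% of all detected genes, and none was lower. Their median was 0.28, against medians of -0.44 to 0.16 in the other clusters. With the median over all genes subtracted 12 were higher. The U1-associated Luc7l2 stood at 0.73, the RNA helicase Ddx17 at 0.67 and Clk4, a kinase of splicing factors, at 0.61. Snrnp70, the U1 protein among the first 14 higher genes of the table, stood at 0.64. Of 44 chromatin remodellers and modifiers 2 were higher, or 4.55%, beside the same 2.19%, so few that the count as deposited gives no direction. None was lower, and the median was 0.22. With the median over all genes subtracted 11 were higher, and with that over detected genes 4. The 2 were Tet3, a methylcytosine oxidase, at 0.89 and Chd6, a remodeller, at 0.74. Among 16 small nucleolar RNA host genes, whose introns hold guides of RNA modification, 5 were lower, beside 11.3% of all detected genes, and none was higher. Zfas1 stood at -0.79, Gas5 at -0.79, Epb41l4aos at -0.65 and Snhg8 at -0.64.

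**Figure D3:**
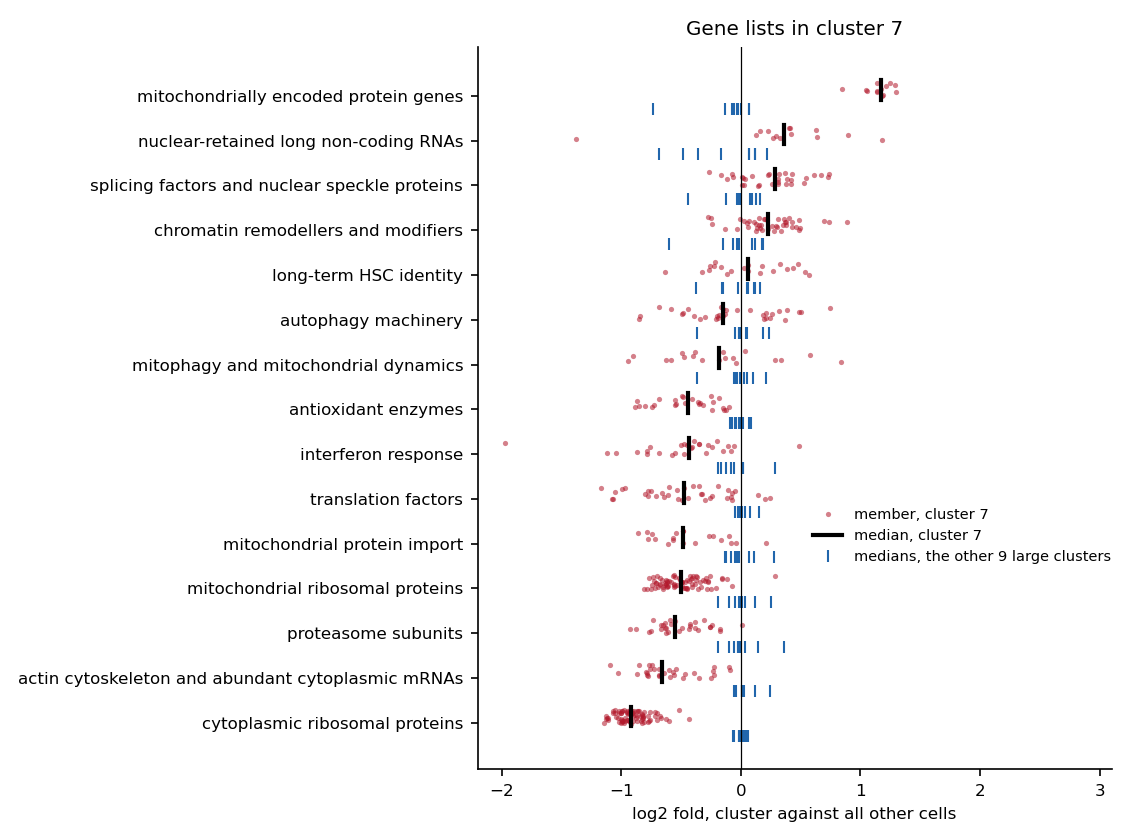
Authors' log2 fold of the detected members of 15 gene lists in cluster 7 (red points, with the median as a black bar) and the list medians in the 9 other large clusters (blue ticks), each against all other cells. Mitochondrially encoded genes have a median of 1.17, cytoplasmic ribosomal proteins one of -0.92, and most other cytoplasmic and mitochondrial lists lie between them, below 0.

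The fold in cluster 7 rose with the exonic length of the gene, the union of all its annotated exons, which can exceed the length of any 1 messenger. Among nuclear genes detected in the cluster and at or above the median level, the decile with the shortest exonic length (183 to 1737 bases, 846 genes) had a median fold of -0.53, and 51.1% of its genes were lower. The decile with the longest (10406 bases or more, 846 genes) had a median fold of 0.27, and 13.8% of its genes were higher. The median was higher in each decile than in the one before it. The gap between the longest and the shortest decile was 0.80 in cluster 7, and between -0.43, in cluster 6, and 0.21 in the other clusters. Over all detected genes, with no filter on level, the gap was 0.56. By gene span, which includes introns, the gap at or above the median level was 0.59. Exons are part of the span, so the parts of exonic length and of span cannot be told apart here.

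Genes called higher outside the mitochondrial genome had a median exonic length of 9131 bases, those called lower and detected one of 2423 bases, and all detected genes one of 4141 bases. The order held at each level: in the quartile of genes with the highest levels the medians were -0.56, -0.36, -0.18 and 0.14 from the shortest to the longest quartile of lengths, and in the quartile with the lowest levels of those kept they were -0.28, -0.11, 0.06 and 0.25. Across 8453 genes the Spearman rho with fold was 0.57 for exonic length, 0.42 for gene span and -0.26 for mean level. These values describe genes that share cells and depth. Without the mitochondrial and cytoplasmic lists the gap between the end deciles was 0.76, in a comparison chosen after the data were seen. Cytoplasmic ribosomal proteins had a median exonic length of 1755 bases and a median fold of -0.92. Nuclear subunits of complexes I, III and IV had 1643.5, 1363 and 1214 bases and medians of -0.54, -0.69 and -0.69. The shortest decile, up to 1737 bases, had -0.53 with 51.1% lower. ATP synthase subunits had 2655.5 bases and -0.70 over the 14 with a length, and the decile from 2497 to 3142 bases had -0.28. The part of length in the folds of these lists was not tested. Splicing factors had 7471 bases and 0.28, and chromatin genes 14230 bases and 0.22. Not all lists followed the trend. The 13 mitochondrial genes went against it. Of short lists with medians above 0, the neutrophil list had 990 bases and 0.21 over 8 genes, and the B cell list 1671.5 bases and 0.95 over 6. These lists summed to 0.24 and 0.41 counts per 10000 over all cells, and the decile of detected genes with the lowest levels had a median fold of 1.01. At or above the median level the B cell median changed sign, as given below, so these lists are no clear exception. The mitochondrial genes are 204 to 1824 bases long and had the highest median of any list with over 10 detected members.

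**Figure D4:**
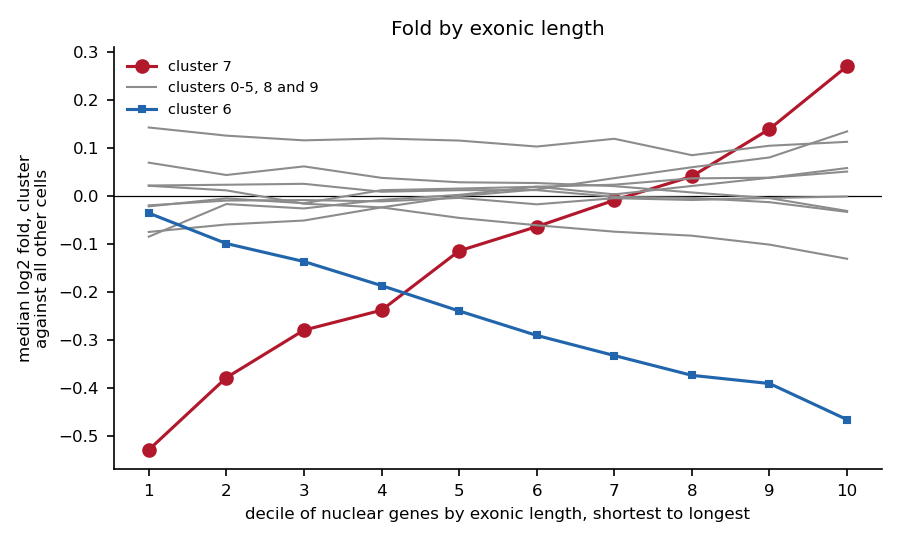
Median log2 fold of nuclear genes at or above the median level (y axis) by decile of exonic length, shortest to longest (x axis), in cluster 7 (red), cluster 6 (blue) and clusters 0 to 5, 8 and 9 (grey). Cluster 7 climbs to 0.27 in the longest decile, against -0.53 in the shortest, and cluster 6 runs the other way.

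Folds differed little between the autosomes and the X chromosome in cluster 7. The medians of the 19 autosomes and the X chromosome lay between -0.09 and 0.02 over detected genes, against 1.17 for the mitochondrial genome. The 6 detected Y-linked genes had a median of 0.47, with 1 of them called. By annotated type, 133 detected sense intronic RNAs had a median of 0.98 and lincRNAs one of 0.24, against -0.06 for 12573 protein-coding genes. Only 3 of the sense intronic RNAs reached the median level, so that value rests on genes seen in few cells.

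Of 21 genes of long-term HSC identity all had a count in cluster 7, as did 14315 of 17055 genes with a count anywhere. They had a median of 0.06, and 2 were higher and 1 was lower. Kit, the stem cell factor receptor, stood at 0.57, Meis1, a homeobox factor of HSCs, at 0.53 and Ly6a, the Sca-1 antigen, at -0.63. Of 15 megakaryocyte and platelet genes 2 were higher, the integrin chains Itga2b at 0.67 and Itgb3 at 0.58, and 2 were lower, Rap1b at -0.55 and Pf4 at -0.53. Of 17 quiescence genes 15 had a fold below 0 and the median was -0.42, against -0.32 to 0.52 in the other clusters, and 1 was called, the cell cycle inhibitor Cdkn1c, lower at -0.53. With either median subtracted no quiescence gene was lower. Beside 2.19% of all detected genes that were higher and 11.3% that were lower, the shares of HSC ageing genes were close, at 3.23% and 9.68% of 31. Itgb3 was higher, and Plscr2 at -1.04, Prtn3 at -0.54 and Mt1 at -0.52 were lower.

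No erythroid, macrophage, neutrophil, B cell, T cell or NK cell marker was called higher, and in each of these lists some members had no count. Of 16 erythroid markers 5 had no count in cluster 7 (Klf1, Car1, Alas2, Slc4a1 and Ank1), none was higher, and 3 were lower, the globins Hba-a1 at -2.92 and Hbb-bt at -0.86 and Blvrb at -0.70. The other detected erythroid markers were not called, and their folds ran from -0.99 for Gata1 to 3.78 for Ermap, with the globin Hbb-bs at 0.67. Of 12 macrophage and monocyte markers 6 had no count, of 11 neutrophil markers 3, of 10 B cell markers 4 and of 10 T and NK cell markers 4, and none of these lists had a higher member. The highest folds, all not called, were 1.21 for C1qa in the macrophage list, 1.84 for Retnlg in the neutrophil list, 3.18 for Ms4a1 in the B cell list and 0.98 for Cd4 in the T and NK cell list. Ermap, Retnlg, Ms4a1 and Cd4 lay in the decile of detected genes with the lowest levels, whose median fold was 1.01 with none called, and C1qa in the next, whose median was 0.037. S100a9 of the neutrophil list stood at 1.00 and was not called. Its level, 0.099 counts per 10000 over all cells, lay in decile 5, whose median fold was -0.00058. Of 13 endothelial markers 2 had no count, Cdh5 among them, and none was higher. Lyve1 and Fabp4 of that list stood at 2.25 and 1.41, both not called. Kit was the 1 higher member of the mast cell list, where Fcer1a and Ms4a2 had no count. Levels per cluster were not analysed here, so the summed level of each list in cluster 7 is not given.

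Few genes of the stress and death lists were called higher in cluster 7, and over all detected genes the share was 2.19%, so few higher members give no direction. Of 29 detected genes of intrinsic apoptosis 6 were lower and 1 was higher, or 20.7% and 3.45%, beside 11.3% and 2.19% of all detected genes. Bcl2l2, which protects from apoptosis, was the 1 higher at 0.90, and the p53 target Bbc3, the caspase Casp6 and the channel Vdac2 stood at -0.76, -0.73 and -0.68. Among the 21 detected p53 targets 14.3% were lower, near the 11.3% of all detected genes, and none was higher. The lower ones were Tnfrsf10b, a death receptor, at -1.21, Gadd45a, a growth arrest gene, at -0.90 and Bbc3. Of 28 interferon response genes 10 were lower and none higher, with a median of -0.43, and Ifit3, Zbp1, Gbp2 and Oas1a stood at -1.98, -1.12, -1.04 and -0.87. Tnfrsf10b and Ifit3 averaged 0.027 and 0.035 counts per 10000 over all cells, so their folds rest on few molecules.

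No member of the heat shock list was called, and the largest values were -0.44 for Dnaja1, a co-chaperone, and 0.39 for Hsp90b1, a chaperone of the endoplasmic reticulum. Of 26 immediate early genes Egr3 alone was called, lower at -1.58, from a level of 0.045 counts per 10000 over all cells. No S phase gene was called, with Cdc45 at -1.27 and Dscc1 at -1.14, both below 0.03 counts per 10000 over all cells. Of 28 detected G2M genes Cenpf was lower at -2.48, from a level of 0.018 counts per 10000. With the median over all genes subtracted from each fold, the number lower was 5 for protein import, 6 for nuclear complex IV subunits, 11 for translation factors, 2 each for mitophagy, glycolysis and small nucleolar RNA host genes, 3 for apoptosis and 1 for HSC ageing.

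Autophagy, which the reporter strain was built to follow, was covered by 33 genes. Of these 4 were lower, a share of 12.1%, near the 11.3% of all detected genes, and none was higher. The median was -0.15 as deposited and 0.020 with the median over all genes subtracted, so the list as a whole gives no direction. Map1lc3b, which encodes LC3B, stood at -0.85. Its relatives Gabarapl2 and Gabarap stood at -0.84 and -0.68, and Sqstm1, which carries cargo to them, at -0.58. The other clusters lay between -0.14 and 0.24 for Map1lc3b. The sources used here do not say whether reads of the transgene count toward Map1lc3b.

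Among the authors' pathways, 187 of 2922 scored higher in cluster 7, or 6.4%, and 1506 lower, or 51.5%, by the deposited adjusted p-value. A pathway fold is that of the authors' score and not of a level, and members of pathways were not analysed here. The highest by score was WikiPathways effects of nitric oxide with a log2 fold of 0.40. Reactome formation of ATP by chemiosmotic coupling was second with 0.62, and WikiPathways neuroinflammation followed with 0.26. The others of the first 10 in the authors' deposited table were amino acid transport across the plasma membrane at 0.32, the serotonin and norepinephrine release cycles at 0.46 and 0.41, nephrogenesis at 0.29, synthesis of PE at 0.33, the melanocyte pathway at 0.30 and Na and Cl dependent neurotransmitter transporters at 0.47. For the first 3 the other clusters reached 0.04, 0.10 and 0.37.

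Most pathways named for respiration or mitochondria scored lower, beside 51.5% of all pathways. The median fold over all pathways was -0.10, so folds near that value do not stand apart from the general shift. All 4 with electron transport in their name were lower, between -0.21 and -0.14, and of the 2 named oxidative phosphorylation the KEGG set was lower at -0.15 and the WikiPathways set was not called at -0.01. Of 30 pathways with mitochondri in their name 21 were lower and 1 was higher, Reactome mitochondrial tRNA aminoacylation at 0.17. Reactome mitochondrial translation stood at -0.47 and WikiPathways complex III assembly at -0.60. All 3 mitophagy pathways were lower, with Reactome mitophagy at -0.43 and receptor mediated mitophagy at -0.35, and so were 7 of 8 autophagy pathways.

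The KEGG ribosome pathway had a fold of -0.87 and Reactome eukaryotic translation elongation one of -0.86, where the other clusters lay within 0.05 of 0 for both. Of 17 pathways named for translation 14 were lower and 2 were higher, beside 51.5% and 6.4% of all pathways. Of 15 apoptosis pathways 12 were lower and none was higher. The KEGG spliceosome pathway was lower at -0.21, against a median of -0.10 over all pathways. The last 8 pathways of the table were Reactome sets: degradation of GLI1 by the proteasome at -0.46, negative regulation of NOTCH4 at -0.48, RUNX3 and RUNX2 regulation at -0.46 and -0.42, interleukin 1 signalling at -0.38, the response to hypoxia at -0.43 and degradation of AXIN and of DVL at -0.46 and -0.47. All 5 pathways named for the proteasome were lower.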

How the data were processed

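The authors deposited 11 gene tables and 11 pathway tables, each of 1 cluster against all other cells of 6 pooled droplet libraries. In them the authors give each gene's mean over all cells of counts scaled to 10000, in log2, a log2 fold change, a p-value and its adjusted p-value per gene, and a score, log2 fold change and p-value per pathway. Scanpy and the mm10 build were used, per the submitters' processing notes. Not given in the sources used here are the aligner, cell filters, handling of doublets, clustering settings and test. The adjusted p-values equalled Benjamini-Hochberg values to within 5.3e-16. On 19 genes seen in 1 cell, in 190 comparisons, the deposited fold matched the ratio of back-transformed means of log values to within 9.3e-07 and missed the ratio of plain means by at least 0.27. Read as plain means, the folds would give cluster 7 a summed level of 8197 of 10000, so no levels per cluster are given.

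Cell numbers were read from the p-values of those 19 genes, and the 11 clusters added up to the total of 22378. Cluster 7 was read from the side of the rest, and the total less the other clusters gave 267 as well. A fold under -10 was read as no count. Library totals and per-library values were not analysed here. The deposited p-values are over cells and not animals, and no test was added. Genes were joined by symbol to GENCODE vM21 (GRCm38), where 16774 of 17068 matched 1 gene, and to RefSeq promoter windows. Exonic length is the union of all exons.

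The cluster and the 43 gene lists were chosen with earlier results of these data known. The genes named were the 13 mitochondrial genes, the first 14 called higher and last 10 called lower and detected in the authors' order without unnamed loci, up to 4 called members per list (or 2 where none was called), the 5 naming genes and the end pathways. Genes outside this rule are Lrpprc, Opa1, Rps15, Chac1, Rpl35, Rpl39, Gata1, Ermap, Hbb-bs, Ms4a1, Cd4, the markers without a count and those of the closing observations, named after their values were seen. A few genes and pathways that the rule names are not reported here. Of 980 different genes in the lists 16 were not measured. Python 3.11.15 with pandas 2.3.3, NumPy 2.4.6, SciPy 1.17.1 and matplotlib 3.10.9 was used, and the reading of cell numbers was tested on simulated data.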

Additional observations from a re-analysis of the deposited data

How the results depend on the processing

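No paired analysis was possible because each group was 1 library and the deposited tables hold no values per library, and for the same reason no library could be left out. A size of 1 in place of 0.5 left 38 genes higher and 323 lower and detected. Genes at or above the median level gave 1302 lower, and leaving out genes without a count gave 1615. Subtracting the cluster's median over all genes gave 941 lower and detected, medians of 1.34 for the mitochondrial genes and -0.75 for ribosomal proteins, 12 splicing factor and 11 chromatin genes called higher, and 29 nuclear respiratory chain subunits called lower, where 55 were lower as deposited. With the median over detected genes, an alternative added after the data were seen, 4 chromatin genes were higher. The subtraction turned list medians close to 0 to the high side: 0.026 for immediate early genes, 0.020 for autophagy, 0.033 for S phase, 0.040 for HSC ageing, 0.13 for megakaryocyte and 0.12 for lymphoid-primed genes. Medians also changed sign to -0.081 for HSC identity without genes of other lists, to 0.014 (megakaryocyte) and 0.39 (lymphoid-primed) with the mean, and to -0.11 (granulocyte-monocyte) and -0.49 (B cell) at or above the median level, so these lists give no direction. The gap between the highest and lowest decile by level was -1.40 over all detected genes and -0.48 at or above the median level. For genes named, the subtraction ended 11 calls and added 2, with 147 unchanged in call. The changes follow from how each alternative is built: a shift of every fold, a larger size, a smaller set of genes or a mean in place of a median. With 267 cells, genes of low level are seen in few cells, and their folds are imprecise.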

Other observations

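Genes named here were chosen after their values were seen. Among nuclear transcripts higher in cluster 7 was Gm42418, annotated as a lincRNA (chr17:39846958-39848788, plus), at 32.3 counts per 10000 over all cells and a fold of 1.11 in the authors' deposited table. The other clusters lay between -0.42 and 0.14. AY036118 lies within it on the opposite strand (chr17:39847113-39848035, minus) and stood at 0.67, and since the use of strand is not given, their reads cannot be told apart. Gm26917, also annotated as a lincRNA, lies beside Gm42418 (chr17:39843013-39846341, plus) and stood at 0.76, where the other clusters reached 0.85. Lars2, the leucyl-tRNA synthetase of mitochondria, stood at 0.85, where the other clusters reached 0.17. Whether the reads counted for Gm42418, AY036118, Gm26917 and Lars2 come from the annotated transcripts was not tested. C2cd5, a membrane trafficking protein, was at 1.20 in cluster 7 and at most 0.32 elsewhere. Ogt, the enzyme that adds O-linked N-acetylglucosamine to proteins and whose transcript is known to keep an intron in the nucleus, stood at 0.65.

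Stromal genes of the marrow had very high folds from very few molecules. Cxcl12, the chemokine that retains HSCs in the marrow, had a fold of 5.48 in cluster 7, and Lepr, which marks the stromal cells that make it, had 4.27, while neither was called. Kitl, the ligand of Kit, stood at 2.21 and was not called. No stromal marker was called, Col1a1 and Pdgfra had no count, and the list as a whole summed to 0.128 counts per 10000 over all cells. Lepr and Kitl lay in the decile of detected genes with the lowest levels, whose median fold was 1.01, and Cxcl12 in the next, whose median was 0.037. How many cells of cluster 7 held these molecules was not analysed here.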
